A study of Mus musculus with 15 samples.

Results

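Expression of 33 skeletal muscle genes was examined in RNA-Seq profiles of whole mouse ear, out of 21110 genes listed in the deposited expression files. The genes were taken from a list of known muscle genes and matched by exact symbol, and 33 of 33 were found. They comprise the developmental myosin heavy chains *Myh3* and *Myh8*, the fast heavy chains *Myh1*, *Myh2* and *Myh4*, the slow heavy chain *Myh7*, the fast light chains *Myl1* and *Mylpf*, and fast (*Tnnc2*, *Tnni2*, *Tnnt3*) and slow (*Tnnc1*, *Tnni1*, *Tnnt1*) troponins. The rest are thin filament and Z disc genes (*Acta1*, *Actn2*, *Actn3*, *Des*, *Myot*, *Neb*, *Tcap*, *Ttn*), calcium genes (*Atp2a1*, *Casq1*, *Pvalb*, *Ryr1*), energy and oxygen genes (*Ckm*, *Cox6a2*, *Eno3*, *Mb*, *Pygm*) and the myogenic factors *Myod1* and *Myog*. All mice were on the C57BL/6 background. The study compared wild-type mice with mice carrying a conditional knockout of *Socs3* (*Socs3* cKO), driven by keratin 5 and so aimed at basal keratinocytes. The labelled libraries used here are 4 per genotype at 2 weeks after birth, and 3 wild-type and 4 *Socs3* cKO at 10 weeks after birth. For both ages the study states more wild-type mice than these libraries. The labels name keratinocytes as the source, but the RNA was isolated from ear specimens with TRIzol, and muscle transcripts were present in all 15 libraries. Muscle cells are not the cells in which keratin 5 drives the deletion, and the ear also holds muscle of its own that moves the pinna.

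Skeletal muscle fibres contract by sliding thick filaments of myosin past thin filaments of actin, nebulin and troponin, and the isoform of myosin heavy chain largely sets how fast a fibre shortens. Young muscle carries embryonic (*Myh3*) and perinatal (*Myh8*) heavy chains that are replaced after birth by the adult fast chains IIa (*Myh2*), IIx (*Myh1*) and IIb (*Myh4*) or by the slow chain (*Myh7*). Oxidative fibres are rich in myoglobin (*Mb*), and fast fibres in parvalbumin (*Pvalb*) and the calcium pump SERCA1 (*Atp2a1*).

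In the mm9 build used by the authors, the fast and developmental heavy chain genes lie next to each other on the plus strand of chromosome 11, in the order *Myh3* (66891802 to 66915793), *Myh2* (66984529 to 67011019), *Myh1* (67013554 to 67038078), *Myh4* (67051314 to 67073948) and *Myh8* (67090626 to 67122136). *Myh7* lies on the minus strand of chromosome 14 (55589525 to 55613471) and *Mb* on the minus strand of chromosome 15 (76845919 to 76881100). Promoter windows of 250 bases before to 50 bases after the start were available from RefSeq (GRCm38.p6) for 25 of the 33 genes, as 30 windows. *Myh1*, *Myh4* and *Myh8* are shown because these neighbours, a fast IIx, a fast IIb and a perinatal chain, each carry a match to the MEF2 motif in this window, and in wild type the first rose with age while the others fell. The motif is in capitals and begins 211, 182 and 99 bases before the start. The coordinates in GRCm38.p6 are chr11:67199852-67200151 for *Myh1*, chr11:67237562-67237861 for *Myh4* and chr11:67276874-67277173 for *Myh8*, all on the plus strand.
Myh1: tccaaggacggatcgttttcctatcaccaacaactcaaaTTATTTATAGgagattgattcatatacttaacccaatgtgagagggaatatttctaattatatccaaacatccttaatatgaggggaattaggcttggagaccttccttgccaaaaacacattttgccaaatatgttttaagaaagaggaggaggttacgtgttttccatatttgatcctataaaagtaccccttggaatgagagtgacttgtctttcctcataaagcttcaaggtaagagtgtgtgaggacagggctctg
Myh4: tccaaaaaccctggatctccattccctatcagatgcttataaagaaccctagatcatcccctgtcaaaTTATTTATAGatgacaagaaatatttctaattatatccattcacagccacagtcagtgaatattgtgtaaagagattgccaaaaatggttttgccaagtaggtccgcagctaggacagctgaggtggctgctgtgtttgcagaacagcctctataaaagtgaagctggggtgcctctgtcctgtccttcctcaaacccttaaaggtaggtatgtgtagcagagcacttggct
Myh8: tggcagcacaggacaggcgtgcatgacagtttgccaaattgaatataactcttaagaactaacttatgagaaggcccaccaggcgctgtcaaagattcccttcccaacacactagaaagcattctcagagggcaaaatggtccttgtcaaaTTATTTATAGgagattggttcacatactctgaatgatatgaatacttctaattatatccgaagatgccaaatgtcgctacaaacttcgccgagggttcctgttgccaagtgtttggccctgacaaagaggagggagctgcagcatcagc
The longest run of bases common to these windows is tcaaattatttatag, 15 bases long, which is held by 3 of all 32851 promoter windows. *Mb*, the gene with the largest change between ages, is shown with its matches to the E-box CANNTG in capitals. Of 3 starts listed, the one whose window holds the most E-boxes was chosen (chr15:77022678-77022977, minus strand).
Mb: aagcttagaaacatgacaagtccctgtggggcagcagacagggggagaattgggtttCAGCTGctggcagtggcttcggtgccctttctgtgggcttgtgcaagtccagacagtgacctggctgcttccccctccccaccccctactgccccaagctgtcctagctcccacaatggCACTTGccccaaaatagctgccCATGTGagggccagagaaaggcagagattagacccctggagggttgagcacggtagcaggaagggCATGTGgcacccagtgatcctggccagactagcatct
The E-box CANNTG, which myogenic factors can bind and which reads the same on both strands, was found in 26 of the 30 muscle gene windows (86.7%) and in 72.3% of all windows. Its form CAGCTG, a subset of CANNTG, was found in 14 of 30 (46.7%) against 16.3% of all windows. The MEF2 motif, searched on both strands, was found in 5 of 30 windows (16.7%), of *Myh1*, *Myh4*, *Myh8*, *Pvalb* and *Ttn*, against 3.19% of all windows. These matches are letters in a window and show no binding.

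Across the 15 libraries the summed FPKM (fragments per kilobase of transcript, scaled to the mapped reads of the library) was 436293 to 671904, and 11698 to 13251 genes had an FPKM of at least 1. Total read counts are not given in FPKM tables, so depth is unknown. The FPKM of *Socs3* itself in the 2-week libraries was 9.71 to 10.3 for wild type and 1.25 to 12.6 for *Socs3* cKO. In the 10-week libraries it was 2.02 to 4.81 for wild type and 29.8 to 47.7 for *Socs3* cKO. Its level in whole ear therefore does not check the genotype labels, and at 10 weeks it went against them. Genotypes below are those of the labels. No library number in the sample titles falls within the range of another group, so a batch and a group cannot be told apart. The labels number the replicates and do not say how the animals were housed or pooled, so p-values measure the spread between these libraries. Transcript length was tied to the libraries: the median deviation of transcripts of at least 6000 bases minus that of transcripts of at most 1500 bases (log2) was 0.40 to 0.68 for wild type at the younger age and -1.10 to -0.27 for wild type at the older age. For *Socs3* cKO it was -0.98 to 0.62 and -0.43 to 0.48, with the lowest value in replicate 1 at 2 weeks. Of the muscle genes, 15 have transcripts of at most 1500 bases and 9 of at least 6000 bases, the latter being the 6 heavy chains, *Neb*, *Ttn* and *Ryr1*. Fits with the length and GC trend of each library removed, an alternative chosen after seeing the data, are given with each comparison where they alter a call of these genes. They were not examined for the wider gene lists.

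At 2 weeks the 33 genes together took 0.288 to 0.408% of a wild-type library's summed FPKM and 0.645 to 0.919% of that of a *Socs3* cKO library. The values at 10 weeks were 0.373 to 0.747% for wild type and 0.182 to 0.329% for *Socs3* cKO. Thus the ranges of the genotypes did not overlap at either age, with *Socs3* cKO above wild type at 2 weeks and below it at 10 weeks. In 24 of the 33 genes the mean FPKM was higher in *Socs3* cKO at 2 weeks and lower at 10 weeks. This pattern was not counted over all genes. Neither this count nor the shares above were redone with the length and GC trend removed. In whole tissue, fewer muscle cells and less muscle RNA per cell cannot be told apart, and this holds for all results below. By mean FPKM, a measure per transcript length, the thin filament actin *Acta1* was highest in wild type at 2 weeks (275 ± 53.9, SD, n = 4) and the light chain *Mylpf* in *Socs3* cKO of the same age (915 ± 425, SD, n = 4). At 10 weeks *Tnnc2* was highest in wild type (463 ± 124, SD, n = 3) and *Mylpf* in *Socs3* cKO (177 ± 40.6, SD, n = 4).

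**Figure D1:**
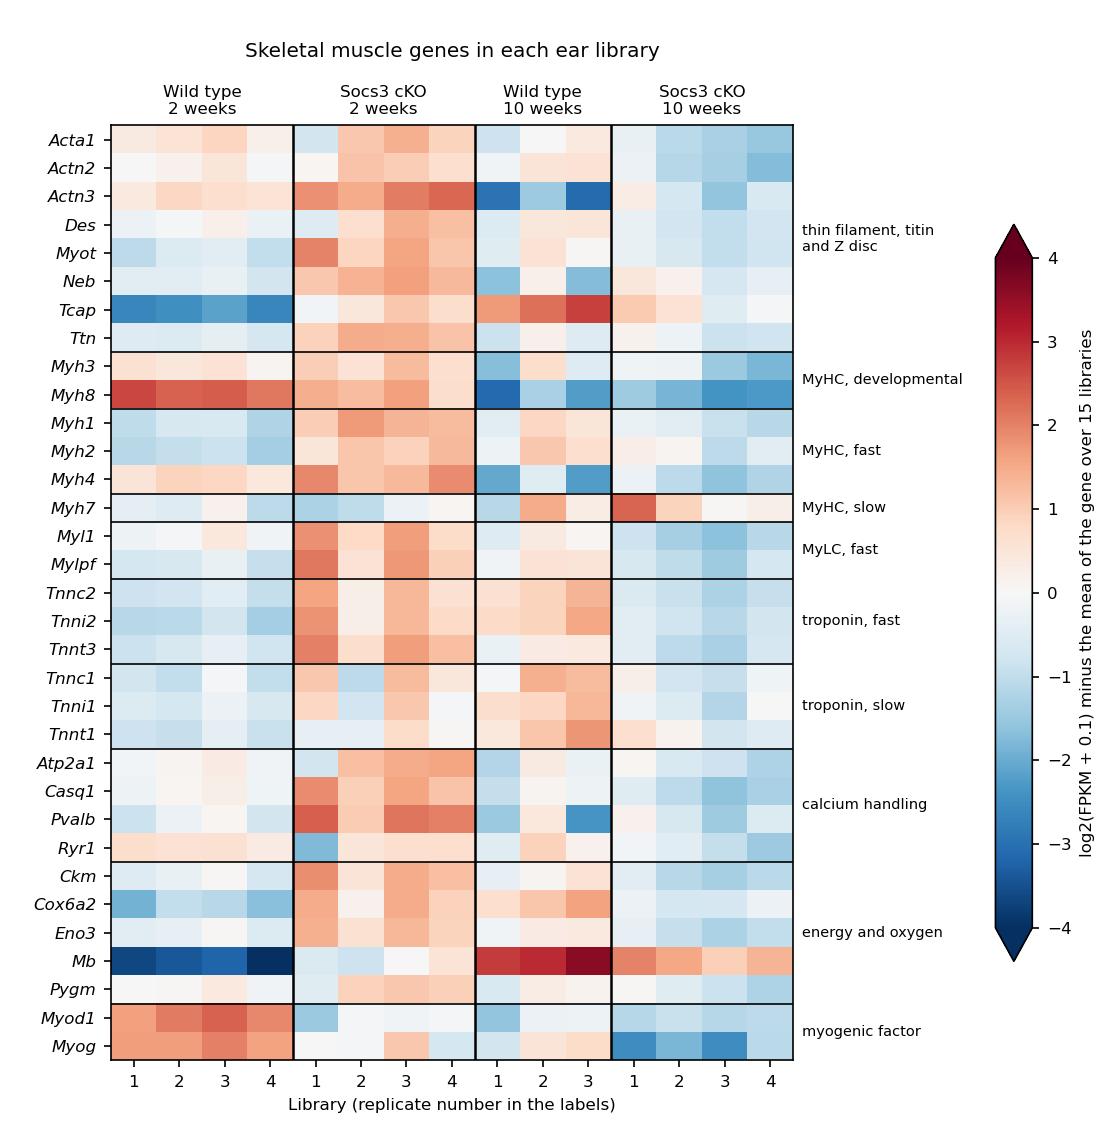
Level of each of the 33 muscle genes (rows) in each of the 15 libraries (columns), as log2(FPKM + 0.1) minus the gene's mean over all libraries, with red higher and blue lower. Most genes are red in the 4 *Socs3* cKO libraries at 2 weeks and blue in the 4 *Socs3* cKO libraries at 10 weeks, while *Mb* and *Tcap* are lowest in wild type at 2 weeks.

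At 2 weeks, 17 of the 32 muscle genes tested were higher in *Socs3* cKO than in wild type and 3 were lower, at an adjusted p below 0.01 and an absolute log2(FC) of at least 1. Among all 13524 genes tested, 7.24% were higher and 7.19% were lower by the same rule. The median log2(FC) of the muscle genes was 1.34, against -0.21 for all genes tested. The genes that rose were led by *Mb*, *Tcap* and *Cox6a2*, whereas both myogenic factors and the perinatal heavy chain *Myh8* fell. *Myh7* was below the filter on low values (FPKM of at least 1 in 3 libraries) and was not tested. Among the genes that rose, *Ttn* reached this filter only through *Socs3* cKO. Among those that fell, *Myod1* reached it only through wild type.

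Of the oxygen and energy genes, 4 of 5 rose, and *Mb* had the largest log2(FC) of the 33 genes. *Mb*, which stores oxygen in oxidative fibres, had an FPKM of 3.58, 4.32, 4.91 and 2.63 in wild type and 31.1, 26.2, 45.3 and 68.1 in *Socs3* cKO. Even the lowest *Socs3* cKO library was above the highest wild-type library, and the difference was a log2(FC) of 3.37 (SE 0.32, adjusted p = 0.000236). *Ckm*, the muscle creatine kinase that buffers ATP, had an FPKM of 68.8, 80.1, 101 and 61.7 in wild type and 361, 142, 275 and 229 in *Socs3* cKO, again without overlap, with a log2(FC) of 1.64 (SE 0.29, adjusted p = 0.00382). *Cox6a2*, the muscle form of a cytochrome c oxidase subunit, rose by a log2(FC) of 2.43 (SE 0.33, adjusted p = 0.00125), and the muscle enolase *Eno3* by a log2(FC) of 1.39 (SE 0.22, adjusted p = 0.00233). The glycogen phosphorylase *Pygm* did not pass the test, with a log2(FC) of 0.55 (SE 0.34, adjusted p = 0.199), and passed with the length and GC trend removed (log2(FC) 1.40).

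Of the Z disc and filament genes, 5 of 8 rose. *Tcap*, which caps titin at the Z disc, rose most, from 6.63 to 9.15 FPKM in wild type to 37.7 to 85.6 FPKM in *Socs3* cKO, a log2(FC) of 2.98 (SE 0.25, adjusted p = 0.000125). *Neb*, the ruler of the thin filament, had an FPKM of 1.42, 1.41, 1.57 and 1.14 in wild type and 4.25, 5.31, 6.32 and 4.87 in *Socs3* cKO, with a log2(FC) of 1.83 (SE 0.19, adjusted p = 0.000297). *Ttn*, the spring that spans the sarcomere, had an FPKM of 0.841, 0.816, 0.924 and 0.733 in wild type and 2.43, 3.63, 3.59 and 2.83 in *Socs3* cKO, with a log2(FC) of 1.78 (SE 0.19, adjusted p = 0.000398). Its transcript of 106824 bases is the longest of the 33, and with the length and GC trend removed its log2(FC) was 0.07 and no longer passed. *Myot* (log2(FC) 2.15, adjusted p = 0.000775) and the fast fibre actinin *Actn3* (log2(FC) 1.30, adjusted p = 0.00219) also rose. *Acta1* did not show such an increase. Its FPKM was 248, 280.0, 348 and 223 in wild type and 117, 410.3, 518 and 359.6 in *Socs3* cKO, so that replicate 1 of *Socs3* cKO lay below the wild-type libraries and the other 3 above them. The log2(FC) of 0.18 (SE 0.43, adjusted p = 0.734) did not pass, and turned to -0.28 under quantile normalization. The intermediate filament gene *Des* had an FPKM of 26.9, 31.0, 37.0 and 26.5 in wild type and 22.3, 51.0, 87.9 and 73.5 in *Socs3* cKO, with the same replicate lowest and a log2(FC) of 0.79 (SE 0.39, adjusted p = 0.119). *Actn2* had a log2(FC) of 0.56 (SE 0.25, adjusted p = 0.0905). Neither passed, and both did with the length and GC trend removed, at log2(FC) of 1.86 for *Des* and 1.47 for *Actn2*.

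Troponin, the calcium switch of the thin filament, was measured as fast and slow isoforms. All 3 fast troponins rose, and none of the 3 slow troponins passed the test. The slow isoforms relative to the fast ones are given as shares further on. *Tnni2*, fast troponin I, had an FPKM of 98.3, 101, 128 and 83.1 in wild type and 731, 249, 535 and 359.9 in *Socs3* cKO, and *Tnnt3*, fast troponin T, had 114, 135, 167 and 121 and 842, 337, 662 and 486. For both genes every *Socs3* cKO library was above every wild-type library, with a log2(FC) of 2.09 (SE 0.32, adjusted p = 0.0021) for *Tnni2* and a log2(FC) of 2.05 (SE 0.28, adjusted p = 0.00125) for *Tnnt3*. *Tnnc2*, the fast calcium sensor, had a log2(FC) of 1.68 (SE 0.30, adjusted p = 0.00401). *Tnni1*, slow troponin I, had an FPKM of 6.99, 6.37, 8.85 and 6.65 in wild type and 18.4, 6.10, 21.9 and 10.1 in *Socs3* cKO. Replicate 2 of *Socs3* cKO lay below the wild-type libraries, and the log2(FC) of 0.80 (SE 0.38, adjusted p = 0.105) did not pass. *Tnnt1*, slow troponin T, had an FPKM of 12.2, 11.5, 17.2 and 11.8 in wild type and 17.3, 17.3, 36.4 and 22.5 in *Socs3* cKO. These ranges met without overlapping, and the log2(FC) of 0.77 (SE 0.26, adjusted p = 0.0396) did not pass. *Tnnc1*, the calcium sensor of slow and cardiac muscle, had an FPKM of 5.39, 4.54, 8.82 and 4.59 in wild type and 19.5, 4.36, 22.0 and 12.5 in *Socs3* cKO, with a log2(FC) of 1.13 (SE 0.49, adjusted p = 0.0846). Of the fast light chains, *Mylpf* rose, with an FPKM of 206, 215, 272 and 176 in wild type and 1424, 494, 1099 and 644 in *Socs3* cKO and a log2(FC) of 1.97 (SE 0.33, adjusted p = 0.00315). *Myl1* had a log2(FC) of 1.25 (SE 0.29, adjusted p = 0.0109) and stood just outside the threshold.

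The heavy chain genes of the chromosome 11 cluster did not move together. *Myh1*, the fast IIx chain, had an FPKM of 19.4, 25.3, 26.0 and 17.2 in wild type and 78.2, 131, 101 and 94.8 in *Socs3* cKO, and *Myh2*, the fast IIa chain, had 4.70, 5.27, 5.57 and 3.96 and 14.5, 22.5, 19.6 and 25.4. Both rose, with no overlap between genotypes, by a log2(FC) of 2.19 (SE 0.20, adjusted p = 0.000199) for *Myh1* and a log2(FC) of 2.03 (SE 0.21, adjusted p = 0.000296) for *Myh2*. *Myh4*, the fast IIb chain, had an FPKM of 22.3, 28.8, 27.95 and 21.0 in wild type and 59.0, 33.99, 38.0 and 58.3 in *Socs3* cKO. Its ranges did not overlap either, but the log2(FC) of 0.89 (SE 0.22, adjusted p = 0.0144) did not pass, and it passed with the length and GC trend removed (log2(FC) 1.81). *Myh8*, the perinatal chain, had an FPKM of 36.9, 30.0, 31.1 and 25.3 in wild type and 15.8, 13.5, 17.98 and 9.39 in *Socs3* cKO, lower in each *Socs3* cKO library, with a log2(FC) of -1.14 (SE 0.22, adjusted p = 0.00555). With the trend removed its log2(FC) was -0.17 and did not pass, and it passed in 3 of 8 fits that left out a library. With the replicate number as a block *Myh8* did not pass (limma adjusted p = 0.0106). *Myh3*, the embryonic chain, had an FPKM of 9.45, 8.62, 9.41 and 6.67 in wild type and 12.3, 9.26, 14.99 and 10.1 in *Socs3* cKO. These ranges overlapped, with a log2(FC) of 0.43 (SE 0.20, adjusted p = 0.0961). *Myh7*, the slow chain, stayed near 0, at 0.269, 0.245, 0.446 and 0.135 in wild type and 0.106, 0.141, 0.320 and 0.418 in *Socs3* cKO. Reads of 50 bases are not unique throughout these genes. Of the 50-base words of *Myh1*, *Myh2*, *Myh8*, *Myh4* and *Myh7*, 26.7%, 26.9%, 21.4%, 18.9% and 22.2% also occur in another gene, against 4.8% for *Myh3*, so the split of reads among them is uncertain.

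Of the calcium genes, *Pvalb*, the relaxing calcium buffer of fast fibres, had an FPKM of 18.9, 29.7, 36.6 and 20.6 in wild type and 184, 70.9, 154 and 141 in *Socs3* cKO. It rose in each *Socs3* cKO library, with a log2(FC) of 2.34 (SE 0.33, adjusted p = 0.00142), as did *Casq1*, the calcium store of the sarcoplasmic reticulum (log2(FC) 1.40, adjusted p = 0.00233). *Atp2a1* had an FPKM of 55.9, 65.2, 76.5 and 55.1 in wild type and 36.4, 139, 171 and 182 in *Socs3* cKO. Replicate 1 of *Socs3* cKO was below the wild-type libraries and the others were above them, and the log2(FC) of 0.84 (SE 0.48, adjusted p = 0.167) passed only with the length and GC trend removed or without that replicate. The release channel *Ryr1* had a log2(FC) of -0.54 (SE 0.53, adjusted p = 0.408), and its lowest value of all 15 libraries, 0.341, was in the same replicate. The sign for *Ryr1* turned with the length and GC trend removed (0.70), where it did not pass either. The myogenic factors moved the other way. *Myod1*, which commits cells to the muscle lineage, had an FPKM of 1.84, 2.55, 3.09 and 2.25 in wild type and 0.122, 0.513, 0.469 and 0.494 in *Socs3* cKO, and *Myog*, which drives their differentiation, had 5.03, 5.08, 6.44 and 4.82 and 1.52, 1.42, 3.31 and 0.895. Both fell, without overlap, with a log2(FC) of -2.43 (SE 0.36, adjusted p = 0.00178) for *Myod1* and a log2(FC) of -1.67 (SE 0.35, adjusted p = 0.00747) for *Myog*. *Myog* passed in 2 of 8 fits that left out a library and not under median-of-ratios or quantile scaling. Under median-of-ratios scaling 1 muscle gene was lower at 2 weeks in place of 3. The low level of *Myod1* in *Socs3* cKO was below an FPKM of 1. Without replicate 1 of *Socs3* cKO, the library that stood apart in length, 20 muscle genes were higher and 3 lower.

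**Figure D2:**
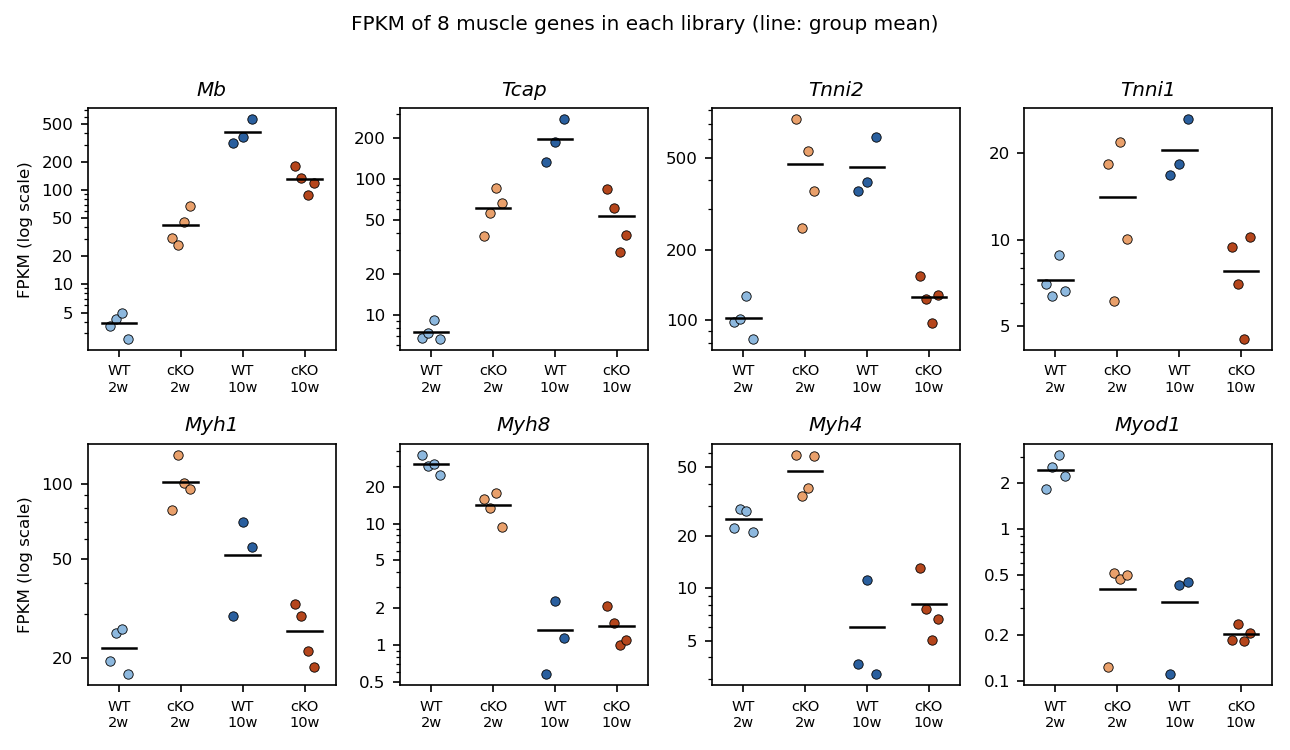
FPKM (log axis) of 8 muscle genes in each library, with the group mean as a line, for wild type (WT, blue) and *Socs3* cKO (cKO, orange and red) at 2 weeks (2w) and 10 weeks (10w). *Mb* ranges from 2.63 in a wild-type library at 2 weeks to 559 in a wild-type library at 10 weeks, and *Myod1* is above an FPKM of 1 in wild type at 2 weeks and below it in the other 3 groups.

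At 10 weeks the direction was the opposite for most of the muscle genes. By the same limma test and rule, 0 of the 30 tested were higher in the libraries labelled *Socs3* cKO and 10 were lower. Among all 13105 genes tested, 12.5% were higher and 2.43% lower by that rule. At an unadjusted limma p below 0.05, 1 of the muscle genes was higher and 19 were lower. The share of all genes at this looser limit was not computed. The median log2(FC) of the muscle genes was -0.95, against 0.31 for all genes. Median-of-ratios scaling changed the numbers over all genes from 1638 higher and 319 lower to 1073 and 632, and those of the muscle genes to 0 and 12. Of the 10 that fell, 8 were among the 14 tested genes with transcripts of at most 1500 bases and 0 among the 8 tested genes of at least 6000 bases. *Myod1*, *Myog* and *Myh7* were below the filter.

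*Tcap* and *Mb* again stood among those with the largest difference. *Tcap* had an FPKM of 133, 188 and 274 in wild type and 84.1, 61.5, 29.0 and 38.7 in *Socs3* cKO, with a log2(FC) of -1.95 (SE 0.37, adjusted p = 0.00397). *Mb* had 318, 365 and 559 in wild type and 181, 135, 88.8 and 118 in *Socs3* cKO, with each *Socs3* cKO library below each wild-type library and a log2(FC) of -1.67 (SE 0.28, adjusted p = 0.00233). *Cox6a2*, *Eno3* and the Z disc actinin *Actn2* fell as well, with log2(FC) of -1.59, -1.07 and -1.43 (adjusted p = 0.00144, 0.00763 and 0.00964). *Ckm* had an FPKM of 77.8, 107 and 146 in wild type and 73.4, 45.3, 39.5 and 46.3 in *Socs3* cKO. These ranges did not overlap, but the log2(FC) of -1.10 (SE 0.27, adjusted p = 0.011) just missed the threshold.

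Of the troponins, fast *Tnni2* had an FPKM of 361, 392 and 617 in wild type and 155, 123, 97.3 and 128 in *Socs3* cKO, and slow *Tnni1* had 16.8, 18.3 and 26.2 and 9.47, 7.03, 4.52 and 10.2. Both fell, without overlap, with a log2(FC) of -1.83 (SE 0.24, adjusted p = 0.000828) for *Tnni2* and a log2(FC) of -1.42 (SE 0.29, adjusted p = 0.00567) for *Tnni1*, so the decrease was not limited to the fast isoform. *Tnnc2* fell as well, with a log2(FC) of -1.85 (SE 0.24, adjusted p = 0.000683). *Tnnt3* had an FPKM of 175, 261 and 273 in wild type and 156, 100.4, 85.8 and 132 in *Socs3* cKO, with a log2(FC) of -1.01 (SE 0.25, adjusted p = 0.013), and did not pass. *Tnnt1* had 29.3, 47.4 and 74.9 in wild type and 34.8, 24.3, 13.2 and 15.4 in *Socs3* cKO. Replicate 1 of *Socs3* cKO lay within the wild-type range, and the log2(FC) of -1.20 (SE 0.38, adjusted p = 0.0327) did not pass. *Tnnc1* had 8.88, 24.4 and 22.3 in wild type and 10.8, 5.26, 4.72 and 8.01 in *Socs3* cKO, with overlap and a log2(FC) of -1.30 (SE 0.39, adjusted p = 0.0271). Both light chains fell. *Mylpf* had an FPKM of 303, 499 and 471 in wild type and 213, 165, 124 and 203 in *Socs3* cKO, with a log2(FC) of -1.26 (SE 0.26, adjusted p = 0.00538), and *Myl1* had a log2(FC) of -1.20 (adjusted p = 0.00664). With the length and GC trend removed, *Mylpf*, *Myl1* and *Tcap* no longer passed and *Myh1*, *Myh2*, *Des* and *Ryr1* did.

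No heavy chain passed the test at 10 weeks. *Myh1* had an FPKM of 29.4, 69.9 and 55.4 in wild type and 33.0, 29.5, 21.3 and 18.3 in *Socs3* cKO, with a log2(FC) of -0.96 (SE 0.31, adjusted p = 0.0352), and *Myh2* had 8.92, 22.1 and 16.3 and 12.4, 11.1, 4.93 and 7.70, with a log2(FC) of -0.79 (SE 0.37, adjusted p = 0.119). Replicate 1 of wild type was low in both genes, and its values lay within the *Socs3* cKO range. *Myh4* had 3.66, 11.2 and 3.204 in wild type and 13.2, 7.56, 5.03 and 6.66 in *Socs3* cKO, with a log2(FC) of 0.57 (SE 0.45, adjusted p = 0.329), and *Myh3* had 1.83, 10.1 and 4.34 and 5.52, 5.37, 2.17 and 1.66, with a log2(FC) of -0.42 (SE 0.58, adjusted p = 0.593). Wild-type replicate 2 was the highest of its group for both. *Myh8* had 0.576, 2.29 and 1.13 in wild type and 2.08, 1.52, 1.008 and 1.10 in *Socs3* cKO. Its log2(FC) of 0.23 (SE 0.44, adjusted p = 0.7) had a 95% interval of -0.746 to 1.199 and turned negative under median-of-ratios scaling (-0.01), quantile normalization (-0.09) and removal of the length and GC trend (-0.49), so no direction can be given. *Myh7* stood at 0.125, 1.28 and 0.507 in wild type and 2.36, 0.815, 0.407 and 0.478 in *Socs3* cKO.

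For actin, the giant sarcomere proteins and the calcium genes described next, the genotypes overlapped at 10 weeks. *Acta1* had an FPKM of 109.7, 193 and 251 in wild type and 156, 90.6, 78.5 and 67.3 in *Socs3* cKO (log2(FC) -0.91, SE 0.34, adjusted p = 0.0589), and *Des* had 22.0, 43.5 and 44.4 and 26.1, 18.8, 16.0 and 18.9 (log2(FC) -0.83, SE 0.27, adjusted p = 0.0373). *Neb* had 0.562, 2.27 and 0.513 in wild type and 2.69, 2.18, 1.19 and 1.52 in *Socs3* cKO (log2(FC) 0.95, SE 0.49, adjusted p = 0.148), and *Ttn* had 0.642, 1.44 and 0.824 and 1.39, 1.05, 0.633 and 0.671 (log2(FC) -0.04, SE 0.38, adjusted p = 0.945). Neither of these giant structural genes passed the test. *Neb* passed without wild-type replicate 2 (log2(FC) 1.58), its log2(FC) was 0.15 with the length and GC trend removed, and the sign for *Ttn* turned when single libraries were left out. *Atp2a1* had 26.6, 77.5 and 50.0 in wild type and 63.4, 39.4, 34.3 and 25.5 in *Socs3* cKO (log2(FC) -0.29, SE 0.38, adjusted p = 0.569), and *Pvalb* had 12.3, 46.3 and 6.76 and 39.3, 22.3, 13.01 and 23.9 (log2(FC) 0.54, SE 0.58, adjusted p = 0.476). *Pvalb* varied widely among wild-type libraries, with replicate 2 far above the others. *Actn3* was the gene with the largest difference in the upward direction, 0.389, 1.28 and 0.347 in wild type and 4.57, 2.21, 1.16 and 2.40 in *Socs3* cKO, but the log2(FC) of 1.85 (SE 0.51, adjusted p = 0.0191) did not pass. *Casq1*, *Myot*, *Pygm* and *Ryr1* had log2(FC) between -0.94 and -0.58, with adjusted p from 0.0574 to 0.178. *Myod1* had an FPKM of 0.110, 0.429 and 0.447 in wild type and 0.184, 0.237, 0.183 and 0.205 in *Socs3* cKO, and *Myog* had 0.856, 2.22 and 2.60 and 0.190, 0.350, 0.189 and 0.662. Both were low in the adult ear, and *Myog* was lower in each *Socs3* cKO library than in any wild-type one.

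The count at 10 weeks depended on single libraries. Without wild-type replicate 3, the library with the highest value of its group for *Mb*, *Tcap* and each troponin but *Tnnc1*, 3 genes passed in place of 10. Without *Socs3* cKO replicate 2 or 3 there were 5 and 6, and without wild-type replicate 2, 6 genes were lower and 2 higher.

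**Figure D3:**
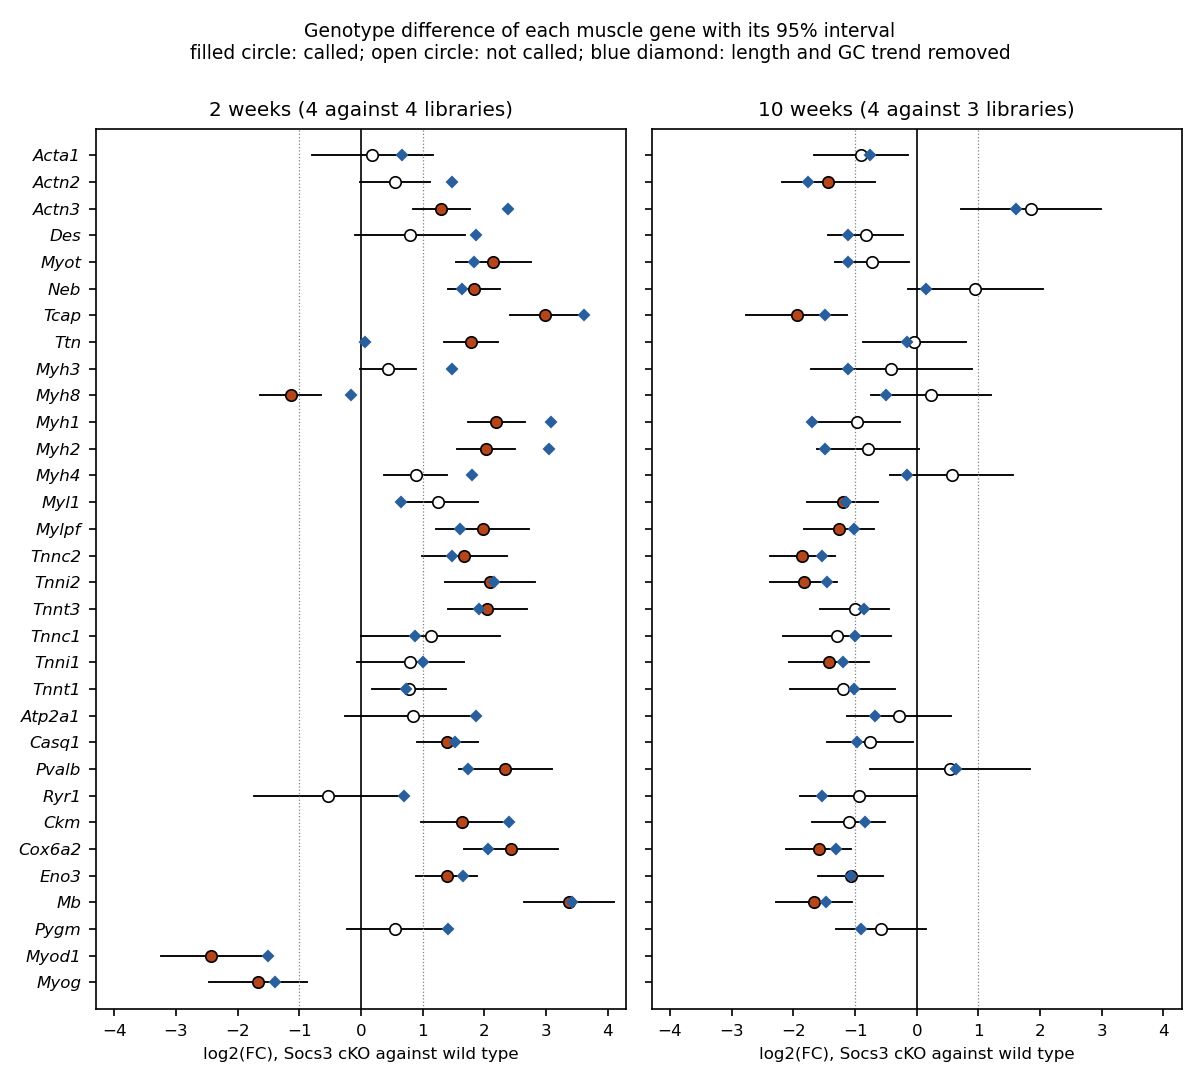
log2(FC) of *Socs3* cKO over wild type at 2 weeks and at 10 weeks for each muscle gene tested, with 95% intervals as bars, filled circles for genes with adjusted p below 0.01 and an absolute log2(FC) of at least 1, and diamonds for the value with the length and GC trend removed. At 2 weeks 17 filled circles lie to the right of 0 and 3 to the left, and at 10 weeks the 10 filled circles lie to the left.

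Between 2 and 10 weeks in wild type, 9 of the 32 tested muscle genes rose and 4 fell. Among all 13937 genes tested, 6.18% rose and 19.4% fell, and the median log2(FC) was 0.19 for the muscle genes and -0.44 for all genes. Median-of-ratios scaling changed the numbers over all genes from 861 higher and 2698 lower to 1552 and 1746, and those of the muscle genes to 11 and 4. Of the 9 that rose, 7 had transcripts of at most 1500 bases and 2 of at least 6000 bases. The genes that rose were *Mb*, *Cox6a2*, *Tcap*, the fast chains *Myh1* and *Myh2*, and 2 fast and 2 slow troponins, while the perinatal chain *Myh8*, the IIb chain *Myh4*, *Actn3* and *Myod1* fell. *Mb* showed the largest change of the 33 genes, with a log2(FC) of 6.70 (SE 0.33, adjusted p = 1.99e-08) from the values given above, followed by *Tcap* with a log2(FC) of 4.67 (SE 0.35, adjusted p = 4.03e-07). *Cox6a2* rose by a log2(FC) of 2.54 (adjusted p = 4.1e-05).

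*Myh8* fell by 4.61 on the log2 scale (SE 0.36, adjusted p = 6.22e-07), from 25.3 to 36.9 FPKM at 2 weeks to 0.576 to 2.29 at 10 weeks. It still fell with the length and GC trend removed, by 3.35. *Myh4* fell by 2.26 (SE 0.39, adjusted p = 0.000449), but by 1.03 with that trend removed, where it did not pass. *Myh1* and *Myh2* rose, with a log2(FC) of 1.16 (SE 0.29, adjusted p = 0.00506) for *Myh1* and a log2(FC) of 1.59 (SE 0.33, adjusted p = 0.00164) for *Myh2*, and *Myh3* did not pass, with a log2(FC) of -0.95 (SE 0.49, adjusted p = 0.119) and a sign that turned when the trend was removed (0.33). *Actn3* fell by 3.10 (SE 0.42, adjusted p = 6.57e-05), its FPKM going from 4.84 to 6.56 at 2 weeks to 0.347 to 1.28 at 10 weeks. *Myod1* fell by 2.67 (SE 0.40, adjusted p = 0.000149), and *Myog* had a log2(FC) of -1.57 (SE 0.45, adjusted p = 0.0103), just short of the threshold.

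Of the troponins, fast *Tnni2* and *Tnnc2* rose, with log2(FC) of 2.13 and 1.68 (adjusted p = 0.00013 and 0.000492), and so did slow *Tnnt1* and *Tnni1*, with 1.85 and 1.48 (adjusted p = 0.00116 and 0.00594). *Tnnt3* (log2(FC) 0.80, adjusted p = 0.0341) and *Tnnc1* (log2(FC) 1.57, adjusted p = 0.0194) did not pass. The 4 calcium genes had log2(FC) between -0.70 and -0.33 and none passed. The other genes that did not pass were *Acta1*, *Actn2*, *Des*, *Myot*, *Neb*, *Ttn*, both light chains, *Ckm*, *Eno3* and *Pygm*, with log2(FC) from -0.64 for *Acta1* to 0.95 for *Mylpf*. With the length and GC trend removed, *Actn2* and *Des* passed, at log2(FC) of 1.09 and 1.18. The signs for *Ryr1* (0.91) and *Pygm* (0.76) turned with that trend removed, and neither passed. Without wild-type replicate 3 at 10 weeks, *Myh1*, *Myh2*, *Tnni1* and *Tnnt1* no longer passed.

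In *Socs3* cKO the same interval gave a different picture: 1 of 32 genes rose and 18 fell. Among all 13937 genes tested, 2.01% rose and 1.53% fell, and the median log2(FC) was -1.80 for the muscle genes and 0.11 for all genes. *Mb* was the gene that rose, with a log2(FC) of 1.67 (SE 0.31, adjusted p = 0.00342). The decreases were led by *Myh8* (-3.24, SE 0.34, adjusted p = 3.39e-05), *Myh4* (-2.58, adjusted p = 0.000463), *Actn3* (-2.55, adjusted p = 0.00078) and *Pvalb* (-2.50, adjusted p = 0.00572). All 3 fast troponins fell, with log2(FC) from -2.25 for *Tnnt3* to -1.80 for *Tnni2*, and both fast light chains, at -2.49 for *Myl1* and -2.28 for *Mylpf*. None of the slow troponins passed, with log2(FC) of -0.85 for *Tnnc1*, -0.75 for *Tnni1* and -0.12 for *Tnnt1* (adjusted p = 0.255, 0.194 and 0.821). *Tnnt1* had no stable direction, since leaving out 1 of 3 libraries turned its sign.

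*Myh1* fell as well, with a log2(FC) of -1.997 (SE 0.27, adjusted p = 0.000323), opposite in sign to its change in wild type, and *Myh2* had a log2(FC) of -1.23 (SE 0.31, adjusted p = 0.0219) and *Myh3* a log2(FC) of -1.79 (SE 0.45, adjusted p = 0.0223), neither of which passed. *Casq1*, *Ckm*, *Eno3*, *Myot*, *Tnnc2*, *Actn2*, *Ttn*, *Cox6a2* and *Myog* completed the genes that fell, with log2(FC) from -2.49 for *Casq1* to -1.48 for *Cox6a2*. *Tcap* had a log2(FC) of -0.26 (SE 0.33, adjusted p = 0.601) and *Myod1* a log2(FC) of -0.62 (SE 0.37, adjusted p = 0.288), and neither passed. *Acta1*, *Des*, *Neb*, *Atp2a1*, *Pygm* and *Ryr1* had log2(FC) between -1.72 and -0.75 and did not pass. With the length and GC trend removed, 25 genes fell and *Ttn* no longer passed.

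**Figure D4:**
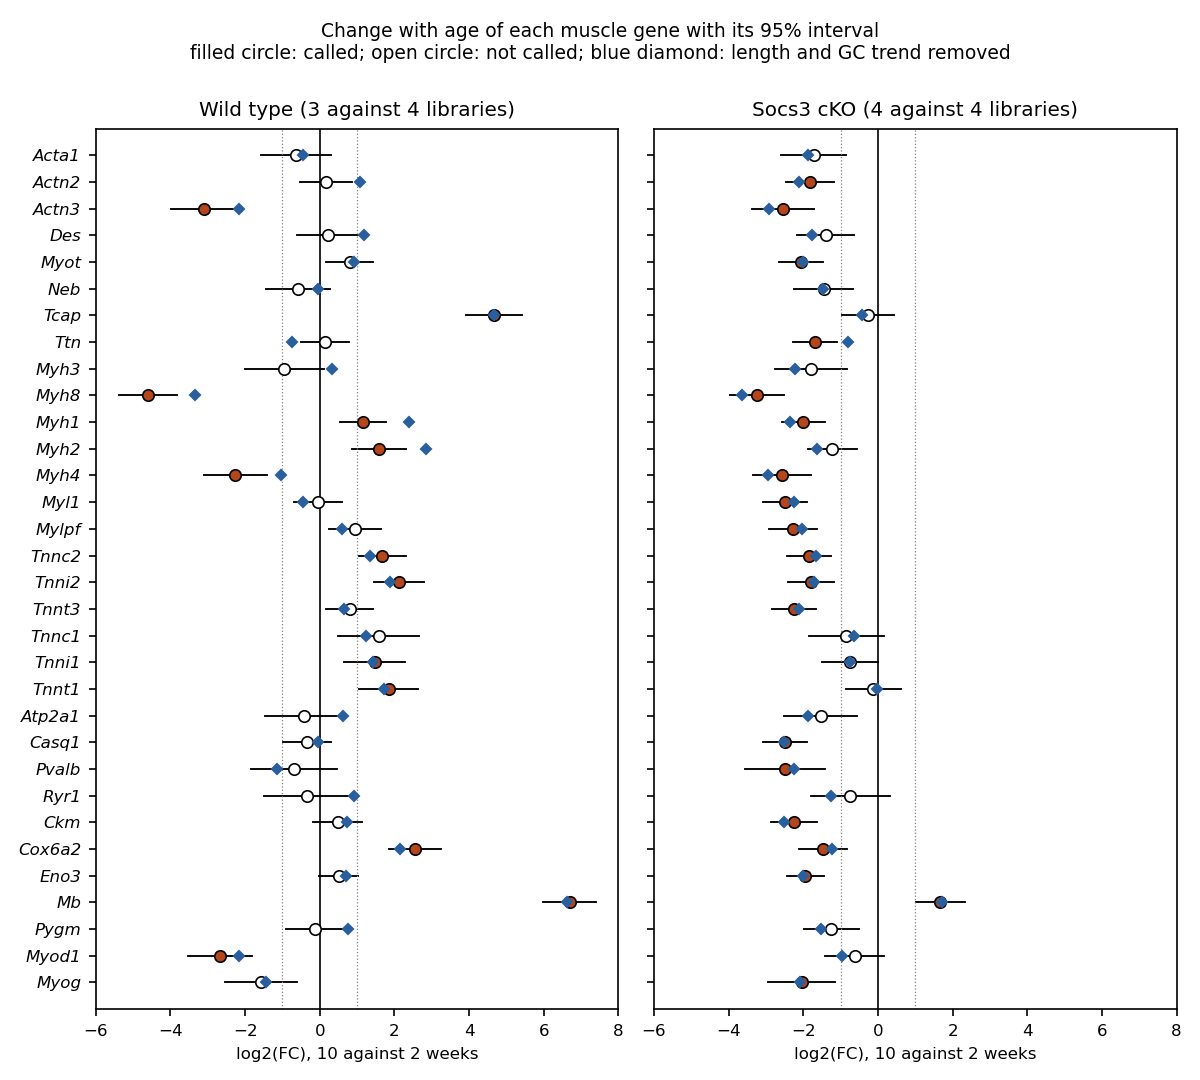
log2(FC) of 10 over 2 weeks in wild type (left) and in *Socs3* cKO (right) for each of the 32 muscle genes tested, with 95% intervals as bars, filled circles for genes that passed the test, and diamonds for the value with the length and GC trend removed. *Mb* and *Tcap* lie far to the right in wild type, at 6.70 and 4.67, against 1.67 and -0.26 in *Socs3* cKO, and *Myh8* lies far to the left in both, at -4.61 and -3.24.

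The difference between the age changes of the genotypes was tested directly as an interaction, the log2(FC) of *Socs3* cKO over wild type at 10 weeks minus that at 2 weeks. It passed for 19 of 32 muscle genes, 18 of them negative and 1 positive. Among all 13937 genes tested, 6.55% were negative and 18% positive by the same rule, and the median was -2.07 for the muscle genes and 0.55 for all genes. Median-of-ratios scaling gave 1717 positive and 1564 negative in place of 2504 and 913 over all genes, and 0 and 21 for the muscle genes. The largest values were those of *Mb* (-5.03, SE 0.45, adjusted p = 7.7e-06), *Tcap* (-4.93, adjusted p = 1.42e-05), *Cox6a2* (-4.02, adjusted p = 3.33e-05) and *Tnni2* (-3.93, adjusted p = 3.23e-05). The fast heavy chains *Myh1* (-3.16) and *Myh2* (-2.82) were negative, and so were slow *Tnni1* (-2.22) and *Tnnt1* (-1.97), with adjusted p of 8.98e-05, 0.000525, 0.00434 and 0.00682. The interaction did not pass for *Myh3* (-0.85), *Myh4* (-0.32) or *Myh8* (1.37, adjusted p = 0.0354), nor for *Actn3* (0.55, and -0.76 with the length and GC trend removed). With the length and GC trend removed it passed for *Myh3* (-2.54, adjusted p = 0.00788), *Atp2a1* (-2.51), *Des* (-2.95), *Pygm* (-2.29) and *Ryr1* (-2.18), was -1.93 for *Myh4* without passing, and no longer passed for *Ttn* (-0.06). *Myod1* was the positive one (2.04, adjusted p = 0.00852), and it did not pass under median-of-ratios scaling, quantile normalization or removal of the length and GC trend. The interaction and the comparisons above it use the same libraries and are not independent of each other.

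**Figure D5:**
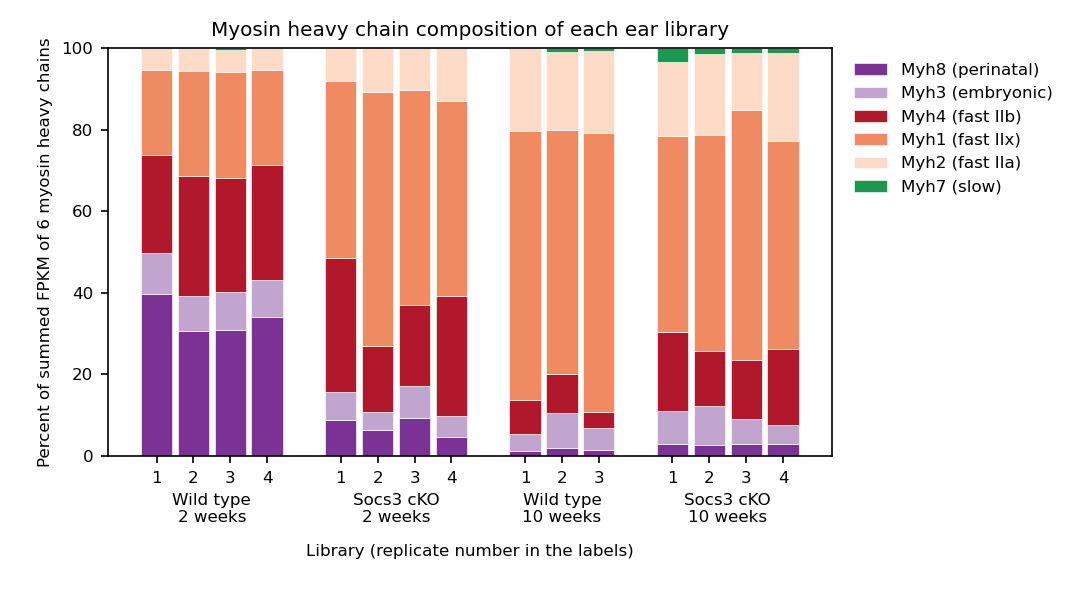
Share (percent) of each of the 6 myosin heavy chain genes in their summed FPKM, as 1 stacked bar for each of the 15 libraries, grouped by genotype and age. At 2 weeks *Myh8* makes up 30.5 to 39.7% of the wild-type bars and 4.73 to 9.37% of the *Socs3* cKO bars, and at most 3.05% in the libraries at 10 weeks.

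To separate the make-up of the fibres from the amount of muscle RNA, each heavy chain was expressed as a share of the summed FPKM of the 6 heavy chains in its library. At 2 weeks *Myh8* made up 39.7, 30.5, 30.9 and 34.1% in wild type and 8.79, 6.45, 9.37 and 4.73% in *Socs3* cKO, with means of 33.8% ± 4.21 (SD, n = 4) and 7.34% ± 2.15 (SD, n = 4). At 10 weeks it made up 1.29, 1.96 and 1.40% in wild type and 3.04, 2.73, 2.89 and 3.05% in *Socs3* cKO. Thus the perinatal share was lower in *Socs3* cKO at 2 weeks and higher at 10 weeks, with no overlap at either age (two-sided exact permutation p = 0.0286 with n = 4 against 4, and p = 0.0571 with n = 3 against 4). These are the smallest p these group sizes allow, and after Benjamini-Hochberg adjustment over 24 share comparisons both were 0.0807, so none of the 24 passed 0.05.

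*Myh1* was the largest share in the other 3 groups, at 51.5% ± 8.03 (SD, n = 4) in the younger *Socs3* cKO, 64.8% ± 4.48 (SD, n = 3) in the older wild type and 53.3% ± 5.58 (SD, n = 4) in the older *Socs3* cKO, against 23.9% ± 2.38 (SD, n = 4) in the younger wild type. At 2 weeks *Myh2* made up 5.32% ± 0.202 (SD, n = 4) of the wild-type and 10.4% ± 1.96 (SD, n = 4) of the *Socs3* cKO total. At 10 weeks it made up 19.7% ± 0.696 (SD, n = 3) and 18.4% ± 3.15 (SD, n = 4). Shares of *Myh1* and *Myh2* are descriptions and were not tested. For *Myh4*, the IIb chain, the 2-week shares were 24.0, 29.4, 27.8 and 28.3% in wild type against 32.8, 16.2, 19.8 and 29.4% in *Socs3* cKO, which overlapped (exact permutation p = 0.571, n = 4 against 4). At 10 weeks it made up 8.23, 9.55 and 3.96% in wild type and 19.2, 13.5, 14.4 and 18.5% in *Socs3* cKO, higher in each *Socs3* cKO library (exact permutation p = 0.0571, the smallest possible, n = 3 against 4, adjusted p = 0.0807). The IIb share was therefore lower at 10 than at 2 weeks in each wild-type library, while in *Socs3* cKO the ages overlapped (exact permutation p = 0.114, n = 4 against 4, adjusted p = 0.152).

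The embryonic share of *Myh3* at 2 weeks averaged 9.31% ± 0.605 (SD, n = 4) for wild type against 6.04% ± 1.57 (SD, n = 4) for *Socs3* cKO, without overlap (exact permutation p = 0.0286, adjusted p = 0.0807, n = 4 against 4). At 10 weeks the averages were 6.05% ± 2.37 (SD, n = 3) and 7.13% ± 2.16 (SD, n = 4), with overlap (exact permutation p = 0.514, n = 3 against 4). At 2 weeks *Myh3* was thus lower as a share in *Socs3* cKO, while its log2(FC) in FPKM was 0.43. The slow chain *Myh7* was the smallest share in most libraries, at 0.289, 0.249, 0.444 and 0.181% and 0.0587, 0.0672, 0.167 and 0.210% at 2 weeks in wild type and *Socs3* cKO, and 0.282, 1.10 and 0.627% and 3.44, 1.46, 1.17 and 1.33% at 10 weeks. In *Socs3* cKO it was higher at 10 than at 2 weeks without overlap (exact permutation p = 0.0286, adjusted p = 0.0807, n = 4 against 4). *Myh7* FPKM was below 1 in 13 of the 15 libraries, so these shares rest on little signal.

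Troponin gave a second view of slow against fast isoforms. At 2 weeks *Tnni1* as a share of *Tnni1* plus *Tnni2* was 6.64, 5.93, 6.48 and 7.41% in wild type against 2.45, 2.39, 3.93 and 2.72% in *Socs3* cKO, lower in each *Socs3* cKO library. *Tnnt1* as a share of *Tnnt1* plus *Tnnt3* was 9.65, 7.90, 9.32 and 8.88% and 2.01, 4.88, 5.21 and 4.42% in the same groups, again lower in each *Socs3* cKO library. Both comparisons had an exact permutation p of 0.0286 (n = 4 against 4) and an adjusted p of 0.0807. At 10 weeks the slow share was 4.46, 4.46 and 4.08% in wild type and 5.74, 5.40, 4.43 and 7.37% in *Socs3* cKO for troponin I, and 14.4, 15.3 and 21.6% and 18.3, 19.5, 13.4 and 10.4% for troponin T, with overlap in both (exact permutation p = 0.171 and 0.629, n = 3 against 4). The slow troponin T share was higher at 10 than at 2 weeks, without overlap, with means of 8.94 and 17.1% in wild type (exact permutation p = 0.0571, n = 3 against 4) and of 4.13 and 15.4% in *Socs3* cKO (exact permutation p = 0.0286, n = 4 against 4). The slow troponin I share went the other way in wild type, with means of 6.61% at 2 weeks and 4.33% at 10 weeks, and was higher at 10 weeks in *Socs3* cKO, 2.87 against 5.74%, with the same p values and an adjusted p of 0.0807 for each of the 4 comparisons. The slow share of troponin C, a description that was not tested, had means of 3.86, 2.79, 3.78 and 5.25%, in the order wild type and *Socs3* cKO at 2 weeks, then at 10 weeks.

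Within each group the muscle genes had a larger median spread between libraries than all genes tested. The median SD of log2 values over the muscle genes at 2 weeks was 0.24 for wild type, where it was 0.10 over all genes, and 0.57 for *Socs3* cKO, where it was 0.48 over all genes. The corresponding values at 10 weeks were 0.55 and 0.33 for wild type, then 0.49 and 0.26 for *Socs3* cKO. Within groups, the highest or lowest values often fell in the same library. Wild-type replicate 3 at 2 weeks held the highest value of its group in 27 of 33 genes and replicate 4 the lowest in 22. At 10 weeks, wild-type replicate 1 was lowest in 29 of 33 and *Socs3* cKO replicate 1 highest in 30. No such count was made over all genes, so whether this is particular to the muscle genes was not tested. In *Socs3* cKO at 2 weeks the libraries were less uniform, since replicate 1 was highest in 11 genes and lowest in 14. Among its lowest values were *Acta1*, *Atp2a1*, *Des*, *Pygm*, *Actn2* and *Ryr1*, and among its highest were *Mylpf*, *Tnni2*, *Tnnt3*, *Casq1* and *Pvalb*.

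Other muscle genes were read from wider lists. Of 38 further sarcomere genes found, 12 of 36 tested were higher in *Socs3* cKO at 2 weeks (33.3%, against 7.24% of all genes). By limma 0 were lower (4 were lower at an unadjusted p below 0.05). The increases were led by *Myl2*, the slow and cardiac regulatory light chain (log2(FC) 3.90), and the Z disc genes *Myoz2* (3.68) and *Ankrd2* (3.38). In wild type at 2 weeks *Myl2* was at 0 to 0.161 FPKM and *Ankrd2* at 0 to 0.786. Their log2(FC) against that group, here and with age, therefore depend on the 0.1 added to FPKM. *Myl2*, *Ankrd2* and *Xirp2*, all among the 12 higher at 2 weeks, reached the filter at that age only through *Socs3* cKO. At 10 weeks, 1 of 33 was higher and 8 were lower (3.03 and 24.2%, against 12.5 and 2.43% of all genes), with *Tpm3* (2.54), *Ankrd2* (-2.01) and *Csrp3* (-1.74) the most changed. *Myoz3* and *Actc1*, both among the 8 lower, reached the filter only through wild type. With age in wild type 8 of 38 rose and 5 fell (21.1 and 13.2%, against 6.18 and 19.4% of all genes), with *Myl2* (7.01), *Ankrd2* (3.92) and *Myl3* (3.498) the most changed. In *Socs3* cKO 2 rose and 16 fell (5.26 and 42.1%, against 2.01 and 1.53% of all genes), led by the fetal and cardiac actin *Actc1* (-4.07). *Myl2* and *Myl3*, both slow and cardiac light chains, rose with age in *Socs3* cKO as well (log2(FC) 3.27 and 3.23), next to *Mb*. The interaction passed for 17 of 38, 16 of them negative (42.1%, against 6.55% of all genes).

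For the smaller lists the shares over all genes are again 7.24% higher and 7.19% lower at 2 weeks, 12.5% higher and 2.43% lower at 10 weeks, and 6.55% negative for the interaction. The muscle energy list gave 5 of 13 higher at 2 weeks, led by the mitochondrial creatine kinase *Ckmt2* (log2(FC) 3.82), 3 lower at 10 weeks, led by the cytochrome c oxidase subunit *Cox8b* (-1.61), and 0 in the other direction at either age (0 also at an unadjusted p below 0.05). The interaction was negative for 6 of 13. Of the genes of excitation and calcium release, 2 of 13 were higher at 2 weeks, *Trdn* (3.05) and *Sln* (2.09), and 3 of 11 lower at 10 weeks. Of the neuromuscular junction genes, 0 of 6 passed by limma at 2 weeks and 0 of 4 at 10 weeks (3 and 2 at an unadjusted p below 0.05), with log2(FC) between -1.05 and 0.94 and between -1.31 and -0.09. Among regulators of satellite cells and myogenesis other than *Myod1* and *Myog*, 2 of 9 were lower at 2 weeks, led by *Chrdl2* (-3.82). *Chrdl2* reached the filter at that age only through wild type. At 10 weeks *Mef2d* was higher (3.41) and *Myf6*, a myogenic factor of mature fibres, was lower (-1.86). In wild type *Mef2d* was at 19.7 to 20.7 FPKM at 2 weeks and 0.592 to 2.17 at 10 weeks. Its lowest value of all 15 libraries, 0.446, was in replicate 1 of *Socs3* cKO at 2 weeks, the library that stood apart in length. How far transcript length enters these list results was not tested.

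Markers of other cell types in the ear also differed between groups. At 2 weeks the summed FPKM of 9 smooth muscle markers was 158 to 174 for wild type against 86.3 to 112 for *Socs3* cKO, and the 10-week ranges were 48.7 to 61.4 against 53.6 to 98.0. In the lower sum at 2 weeks, *Smtn* was at 59.2 to 64.3 FPKM in wild type and 3.64, 17.8, 13.3 and 15.8 in *Socs3* cKO. By limma 2 of 6 tested were lower, *Smtn* and *Actg2* (33.3%, against 7.19% of all genes). *Acta2*, the highest of the list over all libraries, did not pass (log2(FC) -0.38, adjusted p = 0.145). For 8 cardiac muscle markers, with *Tnni3* and *Nppb* the highest at 2 weeks and *Tnni3* at 10 weeks, wild type against *Socs3* cKO gave 4.05 to 5.30 against 2.105 to 3.64 at 2 weeks, then 8.70 to 10.6 against 2.85 to 5.59. The summed level of neither list was higher in *Socs3* cKO than in wild type at 2 weeks, where the skeletal muscle genes were higher. In the same order, adipocyte markers (*Fabp4* highest) gave 262 to 300.7 against 536 to 1093, then 379 to 501 against 572 to 1056. The adipocyte sum was thus higher in *Socs3* cKO at 2 weeks, as the muscle genes were, and 2 of its 7 genes passed. Tendon markers gave 135 to 166 against 237 to 249, then 164 to 254 against 231 to 364. In the higher tendon sum at 2 weeks, *Tnmd* was at 52.2 to 63.2 FPKM in wild type and 187, 88.4, 109 and 97.1 in *Socs3* cKO. *Fmod* was at 30.7 to 40.7 in wild type and 7.66, 95.1, 64.8 and 96.7 in *Socs3* cKO. By limma 0 of 6 tendon genes passed, with *Tnmd* just short (log2(FC) 1.02, adjusted p = 0.0102) and a median log2(FC) of -0.05. Cartilage markers gave 258 to 411 against 117 to 263, then 119 to 157 against 124 to 273. At 2 weeks *Col2a1* was the highest of them in wild type and was lower in *Socs3* cKO (log2(FC) -2.89, adjusted p = 0.00367). The 4 keratinocyte markers gave 7557 to 8303 against 5699 to 11515, then 4724 to 9464 against 7453 to 11384, with overlap at both ages. None of these lists had a gene at 0 in all libraries. Since FPKM is relative to the whole library, the part of such shifts in the muscle gene results was not tested.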

How the data were processed

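RNA-Seq was performed on ear specimens of wild-type and *Socs3* cKO mice with single-end reads of 50 bases. The authors aligned reads to mm9 with TopHat2 (2.1.0 in the submitters' processing notes, which also name Cufflinks, whose role is not given in the sources used here). They deposited 1 table of FPKM values (normalised for transcript length and mapped reads) per library. FPKM keeps no read counts, so count models were not used. The muscle genes and all other gene lists were chosen with earlier results of these data known.

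FPKM was analysed as log2(FPKM + 0.1) for genes that reached an FPKM of 1 in 3 or more of the libraries fitted, with limma 3.58.1 (trend) in R 4.3.3 and Benjamini-Hochberg adjustment over all genes tested. A fold change on this scale understates the change of low genes. A gene could reach the filter through the libraries of 1 group alone. Genes passed at an adjusted p below 0.01 and an absolute log2(FC) of at least 1. The genotype comparisons used the libraries of 1 age, and the age comparisons and the interaction used all 4 groups. Isoform shares were compared with two-sided exact permutation tests (scipy 1.17.1). No 2 libraries were duplicates. Values in each library are given for the heavy chains, troponins and 1 or 2 genes of each class, and for the wider lists up to 3 passing genes with the largest absolute log2(FC). Alternatives were pseudocounts of 1 and 0.01, no filter, median-of-ratios scaling, quantile normalization, a replicate block, leaving out each library and, added after seeing the data, removal of each library's trend with transcript length and GC content. The limma code was tested on simulated data. The result of 1 list of other-cell markers is not reported here.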

Additional observations from a re-analysis of the deposited data

Results flagged for a closer look

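In 4 of 84 groups of 4 libraries examined, 1 library lay far from the other 3 of its group by Dixon's criterion, where chance gives about 1 in 20. *Tnnt1* was at 17.2 FPKM and *Myog* at 6.44 FPKM in replicate 3 of wild type at 2 weeks, both above the rest. *Myod1* was at 0.122 FPKM in replicate 1 of *Socs3* cKO at 2 weeks, below the rest, and the *Myh7* share of the heavy chains was 3.44% in replicate 1 of *Socs3* cKO at 10 weeks, above the rest.

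The log2(FC) of *Socs3* cKO over wild type differed between 10 and 2 weeks, by the limma interaction term, in 19 genes. The change was below -3 for *Mb* (-5.03), *Tcap* (-4.93), *Cox6a2* (-4.02), *Tnni2* (-3.93), *Tnnc2* (-3.53), *Mylpf* (-3.23), *Myh1* (-3.16) and *Tnnt3* (-3.06). It was smaller for *Myot* (-2.87), *Myh2* (-2.82), *Ckm* (-2.74), *Eno3* (-2.45), *Myl1* (-2.45), *Tnni1* (-2.22), *Casq1* (-2.16), *Actn2* (-1.99), *Tnnt1* (-1.97) and *Ttn* (-1.82), and positive for *Myod1* (2.04). With the trend in transcript length and GC content removed, *Ttn* (-0.06) and *Myod1* (1.21) no longer passed. The cause of these differences was not tested.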

How the results depend on the processing

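Of 323 repeats of the counts and isoform shares, 316 were classed as unchanged, 6 as weaker and 1 as reversed. None of the 24 share comparisons passed after adjustment, and leaving out a compared library raises the smallest exact p possible. For the shares, these repeats therefore bear on direction only. Repeats classed as unchanged include counts that fell, such as from 10 to 7 at 10 weeks with no filter on low values. Of 1964 repeats of single gene values, 1780 kept their direction and their side of the threshold, 100 were weaker, 61 stronger and 23 reversed. With 1 library left out, the number of muscle genes that passed ranged from 12 to 23 at 2 weeks (12 without wild-type replicate 1 or 4) and from 3 to 11 at 10 weeks (3 without wild-type replicate 3, 5 and 6 without *Socs3* cKO replicate 2 and 3). It ranged from 9 to 14 with age in wild type, 15 to 21 with age in *Socs3* cKO and 15 to 23 for the interaction. With the replicate number as a block, 6 genes passed at 10 weeks in place of 10, and 14 in place of 20 at 2 weeks. The numbers do not pair the libraries: deviations of same-numbered libraries correlated at 0.026, -0.041, 0.135 and -0.040 at 2 weeks and -0.209, 0.068 and -0.192 at 10 weeks. The *Tnnt1* share difference at 10 weeks ranged from -3.07 to 0.536 points, reversing without wild-type replicate 3.

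Median-of-ratios scaling moved the median of all genes from -0.21 to -0.01 at 2 weeks, 0.31 to 0.06 at 10 weeks, -0.44 to -0.05 with age in wild type and 0.55 to 0.10 for the interaction. The gene values whose direction turned were ones that had not passed the test. The repeats of single gene values covered the heavy chains, slow and fast troponin I and T and some genes of the other classes. Genes outside these repeats also turned with the length and GC trend removed. They were *Ryr1* (-0.54 to 0.70 at 2 weeks, -0.34 to 0.91 with age in wild type), *Pygm* (-0.12 to 0.76 with age in wild type) and *Actn3* (0.55 to -0.76 for the interaction). At 10 weeks *Myh8* turned to -0.0118 under median-of-ratios scaling, -0.0934 under quantile normalization and -0.49 with the length and GC trend removed, and ranged from -0.22 (without wild-type replicate 1) to 0.69 with 1 library left out. *Myh4* turned to -0.16 with that trend removed. *Ttn* turned to 0.0845 with the replicate block and ranged from -0.27 to 0.11 with 1 library left out (above 0 without *Socs3* cKO replicate 3 or 4). Ranges on leaving out a library that also crossed 0 were -1.02 to 0.19 for *Myh3* and -0.69 to 0.0751 for *Atp2a1* (both above 0 without wild-type replicate 2) and -0.0631 to 1.32 for *Pvalb* (below 0 without wild-type replicate 3). At 2 weeks *Acta1* turned to -0.28 under quantile normalization and ranged from -0.0697 (without *Socs3* cKO replicate 3) to 0.65. With age in wild type and the length and GC trend removed, *Myh3* turned to 0.33, *Ttn* to -0.74 and *Atp2a1* to 0.63, and *Ttn* ranged from -0.16 (without replicate 2 at 10 weeks) to 0.36. With age in *Socs3* cKO, *Tnnt1* ranged from -0.38 to 0.11 (above 0 without replicate 3 of either age or replicate 4 at 10 weeks). For the interaction, *Myh8* turned to -0.29 with the trend removed, *Myh4* ranged from -0.64 to 0.24 (above 0 without wild-type replicate 2 at 10 weeks), and *Myog* turned to 0.19 with a pseudocount of 1. The cause was not tested. FPKM keeps no depth, so how far depth limits low genes such as *Myh7* and *Myod1* is unknown.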
